A study of Oryctolagus cuniculus with 12 samples.

Results

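Schwann cells are the glia of peripheral nerves: some wrap large axons in myelin, and others enclose bundles of thin axons without myelin. In the conjunctiva, the membrane that covers the white of the eye, they accompany the sensory and autonomic fibers that run beneath the epithelium. After a nerve is cut they can leave the myelinating state and take up a repair state, in which myelin genes are turned down and genes for growth factors and adhesion molecules are turned up. A set of 8 genes commonly used to follow this lineage was examined, out of the 20566 genes in the deposited table, and all 8 passed the filter on low counts that left 14835 genes for testing. They comprised the lineage transcription factor SOX10, the myelin genes MBP and PRX, the receptors ERBB3, NGFR, and GFRA3, and the adhesion molecules CDH19 and L1CAM.

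RNA came from the conjunctiva of female Japanese white rabbits aged 12 to 14 weeks, and each of 4 groups held 3 libraries. The right eye underwent trabeculectomy, a glaucoma operation in which a flap is cut in the sclera so that aqueous humor drains under the conjunctiva and lifts it into a filtration bleb. Tissue that included the bleb was taken 3 hours (TL3h), 3 days (TL3d), or 14 days (TL14d) later. All operated eyes received mitomycin C, an agent that crosslinks DNA and limits scarring, and betamethasone, a glucocorticoid, was injected at the end of the operation with antibiotic ointment applied. The control group was conjunctiva of left eyes that had not been operated on; the time at which it was collected and the pairing of eyes within an animal were not stated. The surgery, both drugs, and the healing of the wound are therefore combined in each comparison with control. The labels do not say that the libraries of a group came from separate animals, so the p-values measure the spread between these libraries.

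Library totals ranged from 27111276 to 38591374 estimated read counts, and 3 counts, the limit that a count of 0 allows, corresponded to between 0.0712 and 0.124 CPM (counts scaled to library size). The composition of several libraries differed from that of others in their group. TL14d replicate 1 had a mean correlation of 0.962 with the control libraries and of 0.898 with the other TL14d libraries, over log2 CPM of all genes tested. The summed CPM of 8 fibroblast markers was 12301, 35743, and 76958 in control replicates 1, 2, and 3, and 1360, 11793, and 65107 in TL3d replicates 1, 2, and 3. Skeletal muscle markers summed to 576 CPM in control replicate 2 and 537 CPM in TL3d replicate 3, against at most 57.1 CPM elsewhere. Calls of the 8 genes against control that changed without these libraries are given beside the result. Without control replicate 2 and TL3d replicate 3 together, 0% of all genes passed the threshold at 3 days against control, so that every such 3-day call below was lost. The fibroblast markers also stood apart between groups: they summed to 105662 to 126585 CPM in the TL3h libraries, above every control library. At 3 hours 0 of these 8 markers passed the threshold, where 45.4% of all genes did. In tissue of mixed cells, fewer cells of a type and less RNA per cell cannot be told apart.

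The levels of the 8 genes per unit of transcript length spanned a wide range. In control conjunctiva, ERBB3 had the highest level at 91.9 ± 37.5 FPKM (fragments scaled to transcript length and library size, mean ± SD, n = 3), above 95.9% of the genes tested. It made up 79.6% of the summed FPKM of the 8 genes. MBP followed at 10.97 ± 0.418 FPKM and NGFR at 10.4 ± 3.63 FPKM, and these neighbors in the order did not differ beyond their spread. PRX stood at 1.04 ± 0.162 FPKM and L1CAM at 0.443 ± 0.119 FPKM. The last neighbors, GFRA3 at 0.261 ± 0.110 FPKM, SOX10 at 0.250 ± 0.201 FPKM, and CDH19 at 0.229 ± 0.0889 FPKM, overlapped one another, and CDH19 was above only 8.01% of the genes tested. The order of the group means was not the same at each time: at 3 hours MBP was first (21.3 ± 5.30 FPKM) and ERBB3 second (15.7 ± 6.97 FPKM), with overlapping libraries, and at 3 days L1CAM reached 4.49 ± 2.80 FPKM, above PRX. SOX10, CDH19, and GFRA3 had at most 75, 58, and 34 estimated counts in any library, respectively, and their fold changes were imprecise.

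**Figure D1:**
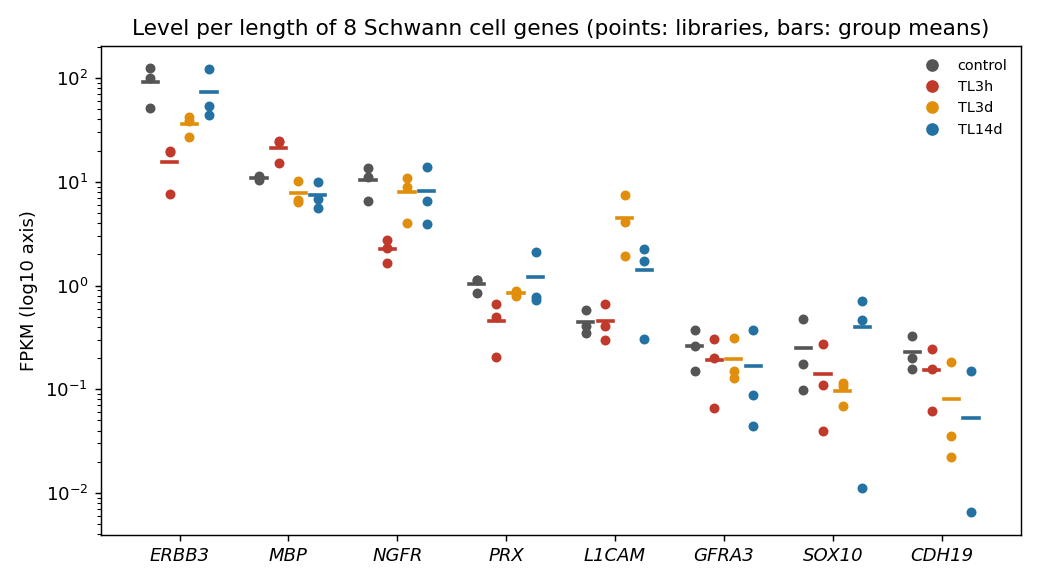
Deposited FPKM on a log10 axis for each gene, in order of the control mean. Points are libraries and bars are group means (n = 3); CDH19 in TL14d replicate 3 was at 0 and has no point. ERBB3 lies far above the other 7 genes in control tissue, L1CAM lies above PRX at 3 days, and the mean of MBP lies above that of ERBB3 at 3 hours.

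The label was checked against Schwann cell markers outside the 8 genes. S100B, a calcium-binding protein of glia, had 3.47 ± 3.29 FPKM in control tissue and was detected in every control library, at a level far below that of ERBB3. MAG, a myelin glycoprotein, was at 0 in 11 of 12 libraries, and FOXD3, a neural crest factor, had no whole count in any of them. In control tissue ERBB3, MBP, and NGFR stood above 95.9%, 60.4%, and 59.0% of the genes tested, and SOX10 and CDH19 were near the low end. ERBB3 and NGFR are known to be used by epithelial cells as well.

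MBP, myelin basic protein, compacts the myelin sheath from its cytoplasmic side. The gene (ID 100344447) lies on the minus strand of unplaced sequence in the OryCun2.0 build, at 319392347 to 319468770 of the joined unplaced chromosome used in the deposited table. It was measured at 11.7, 11.01, and 12.6 CPM in control replicates 1, 2, and 3, and at 36.0, 23.1, and 35.7 CPM in the TL3h replicates. At 3 days the libraries had 10.8, 6.71, and 7.34 CPM, and at 14 days 10.7, 7.23, and 5.99 CPM. Every TL3h library was above every library of the other groups, and every TL3d and TL14d library was below every control library. MBP rose 2.68-fold on average at 3 hours (log2 fold change 1.42, standard error [SE] 0.27, adjusted p [q] = 0.00208, edgeR quasi-likelihood test with Benjamini-Hochberg adjustment). The lower levels at 3 days (log2 fold change -0.51, SE 0.27, q = 0.199) and 14 days (-0.57, SE 0.27, q = 0.502) did not pass the threshold of 0.05. Between 3 hours and 3 days MBP fell by 1.93 on the log2 scale (SE 0.28, q = 0.000544).

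PRX, periaxin, links the outer Schwann cell membrane of myelinated fibers to the basal lamina through the dystroglycan complex. The gene (ID 100340885) also lies on unplaced sequence, at 353886630 to 353898509 on the plus strand. It had 5.41, 5.33, and 4.31 CPM in the control libraries and 3.31, 4.52, and 1.35 CPM at 3 hours. It had 4.20, 3.76, and 4.15 CPM at 3 days, all just below the lowest control library, and 10.1, 3.40, and 3.74 CPM at 14 days. The groups otherwise overlapped, and TL14d replicate 1 alone was above all control libraries. No comparison of PRX passed the threshold; the log2 fold changes over control were -0.71 (SE 0.48, q = 0.259) at 3 hours, -0.31 (SE 0.48, q = 0.672) at 3 days, and 0.20 (SE 0.48, q = 0.905) at 14 days. Without TL14d replicate 1 the last of these was -0.49. From 3 hours to 14 days the log2 fold change was 0.91 (SE 0.49, q = 0.152), which passed with library size only (1.40, q = 0.0367), a scaling that moves the median of all genes in this comparison to 0.49. The difference in response between PRX and MBP was not tested.

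**Figure D2:**
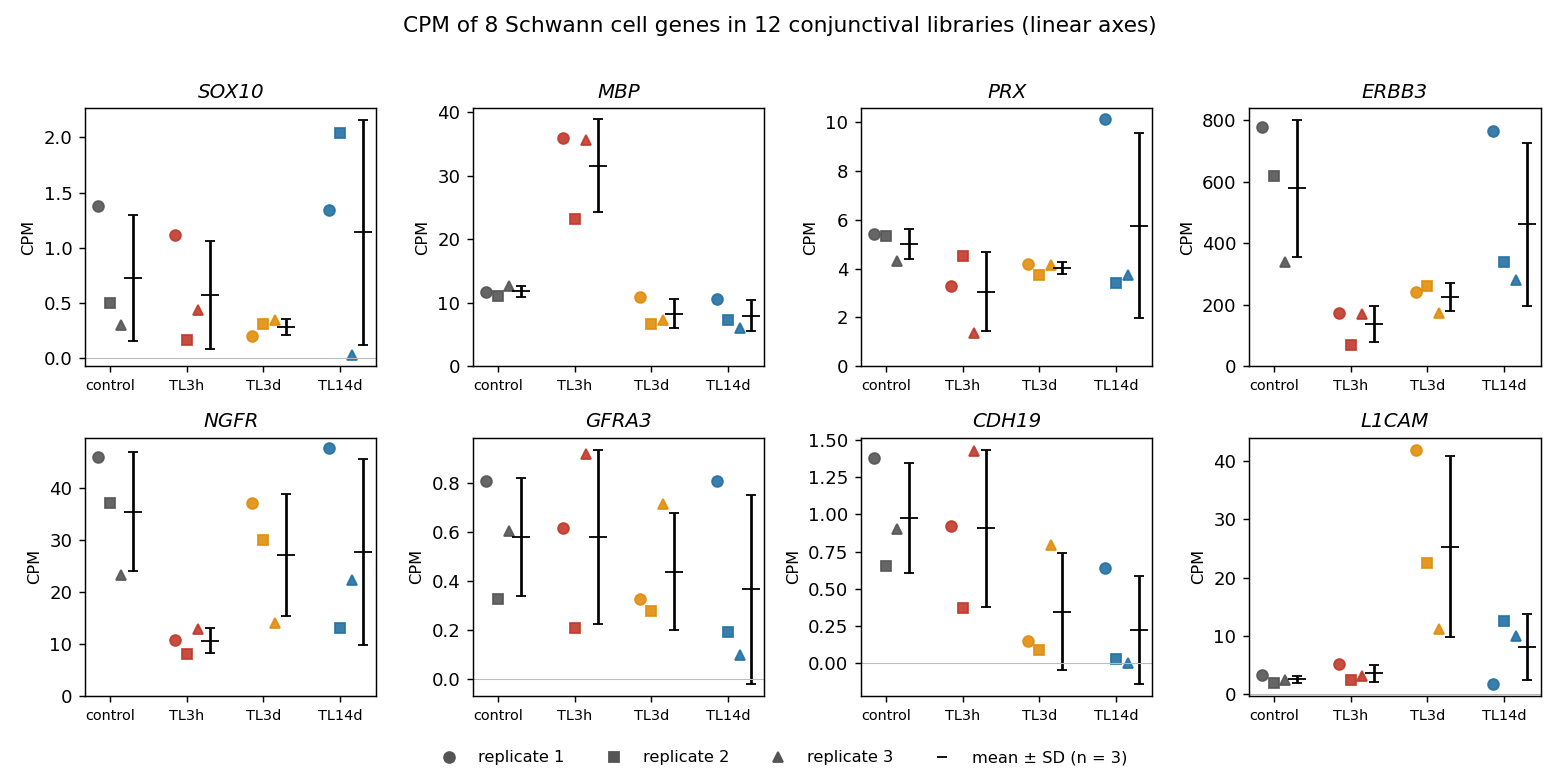
CPM of each gene in each of the 12 libraries on linear axes that differ between panels. Circles, squares, and triangles are replicates 1, 2, and 3, and black bars are the mean ± SD of each group (n = 3). MBP is high at 3 hours, ERBB3 and NGFR are low at 3 hours, L1CAM is high at 3 days, and SOX10, CDH19, and GFRA3 spread widely within groups.

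ERBB3 is the receptor through which neuregulin from axons controls Schwann cell survival and myelination; it signals in a pair with ERBB2. The gene (ID 100008807) lies on chromosome 4 at 39637792 to 39661767, plus strand. It had 778, 619, and 338 CPM in control replicates 1, 2, and 3, and 173, 69.0, and 171 CPM in the TL3h replicates. The TL3d libraries had 241, 261, and 174 CPM, and the TL14d libraries had 765, 338, and 281 CPM. All TL3h and TL3d libraries were below all control libraries, and the TL14d libraries overlapped the control libraries. ERBB3 fell 4.21-fold on average at 3 hours (log2 fold change -2.07, SE 0.49, q = 0.0061). At 3 days it was 2.57-fold lower on average without passing the threshold (log2 fold change -1.36, SE 0.47, q = 0.0711); it passed in 4 of 20 alternatives, which were DESeq2 (q = 0.0209), only the 6 libraries compared (q = 0.0409), without TL14d replicate 1 (q = 0.0349), and without control replicate 3, TL3d replicate 3, and TL14d replicate 1 together (q = 0.0351). At 14 days the log2 fold change was -0.33 (SE 0.47, q = 0.837). The return from 3 hours to 14 days was a rise of 3.36-fold on average (log2 fold change 1.75, SE 0.48, q = 0.0140), which missed the threshold without TL14d replicate 1 (1.18, q = 0.0532).

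NGFR, the low-affinity neurotrophin receptor p75, marks immature, non-myelinating, and repair Schwann cells. The gene (ID 100349095) lies on chromosome 19 at 38083773 to 38101586, minus strand. It was at 45.9, 37.2, and 23.2 CPM in the control libraries and at 10.8, 8.09, and 12.9 CPM at 3 hours. It was at 37.0, 30.0, and 14.1 CPM at 3 days and at 47.7, 13.1, and 22.3 CPM at 14 days. The TL3h libraries were below all libraries of the other groups, while the remaining groups overlapped. NGFR fell 3.34-fold on average at 3 hours (log2 fold change -1.74, SE 0.50, q = 0.0166), and q was 0.0571 without control replicate 1 and 0.0570 without TL3h replicate 2. The log2 fold change over control was -0.39 (SE 0.48, q = 0.591) at 3 days and -0.36 (SE 0.48, q = 0.827) at 14 days. From 3 hours to 14 days it rose by a log2 fold change of 1.38 (SE 0.49, q = 0.0432), but 10 of 20 alternatives put this q above the threshold. From 3 hours to 3 days the value was 1.35 (SE 0.49, q = 0.0547), and 11 of 20 alternatives put it past the threshold.

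GFRA3 is the co-receptor for artemin, a ligand of the GDNF family. The gene (ID 100343381) lies on chromosome 3 at 20540187 to 20566463, minus strand. It had 0.807, 0.325, and 0.602 CPM in the control libraries and 0.615, 0.207, and 0.915 CPM at 3 hours. It had 0.325, 0.277, and 0.711 CPM at 3 days and 0.807, 0.190, and 0.0977 CPM at 14 days, and the groups overlapped throughout. The log2 fold changes over control were 0.01 (SE 0.78, q = 0.995), -0.40 (SE 0.78, q = 0.745), and -0.67 (SE 0.79, q = 0.795) at the 3-hour, 3-day, and 14-day points, in that order; the first of these changed sign in 11 of 20 alternatives. No comparison of GFRA3 passed the threshold, with low counts and a wide spread between libraries.

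SOX10 is required for the specification and maintenance of the Schwann cell lineage, and also for melanocytes. The gene (ID 100354496) lies on unplaced sequence at 377482369 to 377491676, minus strand. It was at 1.38, 0.500, and 0.301 CPM in control replicates 1, 2, and 3, and at 1.11, 0.166, and 0.439 CPM in the TL3h replicates. It was at 0.200, 0.308, and 0.341 CPM at 3 days and at 1.34, 2.04, and 0.0326 CPM at 14 days, the last of these from 1 count. The TL3d libraries were all low, and those of the other groups ranged from low to high. The log2 fold changes over control were -0.34 (SE 1.05, q = 0.822) at 3 hours, -1.35 (SE 1.08, q = 0.392) at 3 days, and 0.65 (SE 1.03, q = 0.854) at 14 days, and none passed the threshold. The value at 14 days was -0.08 without TL14d replicate 2, and that at 3 hours was 0.51 without control replicate 1.

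TL14d replicate 2, the library with the most SOX10, also had the highest levels of DCT, PMEL, and TYR. DCT, a melanin-forming enzyme, was at 30.3 CPM there, and at 0.235 and 0.684 CPM in TL14d replicates 1 and 3. TL3h replicate 1, which had the highest SOX10 of its group, had 9.92 CPM of DCT against 0.0415 and 0.293 CPM in the other TL3h libraries. In the control group DCT was likewise highest, at 3.63 CPM, in the replicate with the highest SOX10. PMEL, a melanosome protein, reached 34.5 CPM in TL14d replicate 2 and at most 14.0 CPM in any other library. TYR, tyrosinase, reached 6.004 CPM in that library and was at 0 in TL3d replicates 1 and 2. OCA2, a melanosome transporter, was instead highest in TL14d replicate 1 (3.43 CPM, against 1.55 CPM in replicate 2). The summed CPM of the 11 melanocyte markers in the table ranged from 147 to 257 in control, 48.0 to 115 in TL3h, 50.2 to 66.5 in TL3d, and 71.3 to 283 in TL14d libraries. The sum was highest in TL14d replicate 1 and then in control replicate 1, both above the 249 CPM of TL14d replicate 2; KIT, which is also used by other cells, had most of that sum in control libraries. The part of these cells in the SOX10 values was not tested.

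By the Pearson correlation of log2 CPM over the 12 libraries, genes among the 5 most like SOX10, of 13248 ranked, were PPP1R7 (r = 0.885), PET100 (r = 0.819), FBXO34 (r = 0.795), and MRPL55 (r = 0.784). By Spearman's coefficient none of these 4 genes was among the first 5, which included ARL6IP6 (0.860), MAT2B (0.839), and RCC2 (0.832). These values describe the 12 libraries, which share depth and tissue composition between genes.

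CDH19, cadherin 19, is an adhesion molecule of Schwann cell precursors and of non-myelinating Schwann cells. The gene (ID 100341097) lies on chromosome 9 at 106705278 to 106791847, minus strand. It had 1.38, 0.650, and 0.903 CPM in the control libraries and 0.923, 0.373, and 1.43 CPM at 3 hours. It had 0.150, 0.0924, and 0.797 CPM at 3 days and 0.639, 0.0272, and 0 CPM at 14 days. All TL14d libraries were below all control libraries, and TL3d replicate 3 overlapped the control group. The log2 fold changes over control were -0.10 (SE 1.15, q = 0.951), -1.49 (SE 1.19, q = 0.391), and -2.15 (SE 1.24, q = 0.577), and none passed the threshold. Without TL14d replicate 1, the library that resembled the control group, the change at 14 days was -5.75 (q = 0.049996) and passed narrowly; that value rests on 1 count in the remaining TL14d libraries and its size is not interpretable. Without control replicate 3, TL3d replicate 3, and TL14d replicate 1 together, q at 14 days was 0.0282 and the change at 3 days was -3.03 (q = 0.0371). Set against 3 hours, CDH19 was lower at 14 days by a log2 fold change of -2.04 (SE 1.24, q = 0.205); q was 0.0106 without TL14d replicate 1 and 0.00520 without the 3 libraries, which also put the change from 3 hours to 3 days past the threshold (-2.82, q = 0.0279).

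SCN7A, a sodium channel gene of non-myelinating Schwann cells, was the gene most like CDH19 (Pearson r = 0.967) and most like GFRA3 (r = 0.819), the same rule having been extended to the other members after the values for SOX10 were seen. It had 2.94, 1.501, and 2.18 CPM in the control libraries, 2.92, 0.830, and 2.01 CPM at 3 hours, 0.04997, 0.0924, and 1.31 CPM at 3 days, and 1.48, 0.0543, and 0 CPM at 14 days. TL3d replicates 1 and 2 and TL14d replicates 2 and 3 were near 0 for both SCN7A and CDH19. S100B had 0, 0.0308, and 0.370 CPM at 3 days, against 0.902 to 5.92 CPM in the control libraries. S100B did not pass the threshold at 3 days (log2 fold change -4.35, SE 1.74, q = 0.102), although all its TL3d libraries were below all control libraries. TL3d replicates 1 and 2 were also the libraries with the least fibroblast signal of the TL3d group. At 14 days this was not so: replicate 3, where SCN7A and CDH19 were at 0, had 57355 CPM of fibroblast markers, above replicates 1 and 2 (26994 and 11065 CPM). The part of tissue depth or sampling in the Schwann cell values was not tested.

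L1CAM is an immunoglobulin-family adhesion molecule of axons and of non-myelinating Schwann cells, and it is also found in some epithelia. The gene (ID 100328746) lies on unplaced sequence at 290769636 to 290791576, plus strand. It had 3.23, 1.93, and 2.43 CPM in control replicates 1, 2, and 3, and 5.23, 2.41, and 3.15 CPM in the TL3h replicates. It had 42.0, 22.6, and 11.3 CPM in the TL3d replicates and 1.71, 12.5, and 9.93 CPM in the TL14d replicates. All TL3d libraries were above all control and TL3h libraries, and of the TL14d libraries replicates 2 and 3 were above the control group and replicate 1 was below it. L1CAM rose 10-fold on average at 3 days (log2 fold change 3.32, SE 0.72, q = 0.0177). Its q was between 2.2e-05 and 0.0697 over 20 alternatives and was past the threshold in 15 of them. It missed the threshold without control replicate 1 (q = 0.0580), control replicate 2 (q = 0.0681), TL3d replicate 1 (q = 0.0618), or TL3d replicate 2 (q = 0.0553), and without the libraries with skeletal muscle genes, control replicate 2 and TL3d replicate 3, together (log2 fold change 3.51, q = 0.0697). The rise from 3 hours to 3 days (log2 fold change 2.81, SE 0.70, q = 0.0107) was past the threshold in 20 of 20 alternatives. At 3 hours the log2 fold change over control was 0.51 (SE 0.67, q = 0.572). At 14 days it was 1.67 (SE 0.68, q = 0.439, unadjusted p = 0.0327), and q was 0.0495 without TL14d replicate 1 and 0.0406 without control replicate 3 and TL3d replicate 3 as well. From 3 hours to 14 days the log2 fold change was 1.16 (SE 0.67, q = 0.181), and q was 0.0291 and 0.0132 without the same libraries.

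**Figure D3:**
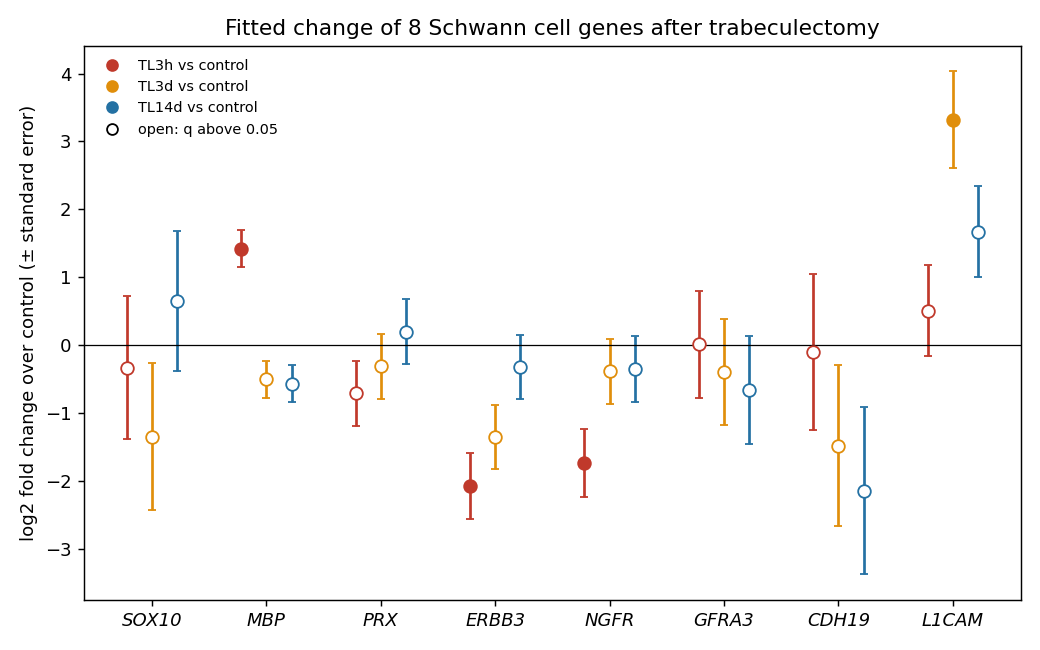
Fitted log2 fold changes over control with their standard errors for the 8 genes in TL3h, TL3d, and TL14d (3 libraries a group, fit over all 12). Filled points passed q = 0.05: MBP at 1.42, ERBB3 at -2.07, and NGFR at -1.74 at 3 hours, and L1CAM at 3.32 at 3 days.

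Counted over the list, 3 of 8 genes passed the threshold at 3 hours, where 45.4% of all genes tested did; 1 was higher (23.2% of all genes) and 2 were lower (22.2%). Scaled by library size without TMM, the background at 3 hours was 12.7% higher and 38.2% lower, and the directions of the 3 genes were kept. At 3 days 1 of 8 passed, where 17.6% of all genes did, and at 14 days 0 of 8 passed, where 0% of all genes did. At 14 days 1538 genes had an unadjusted p under 0.05, among which L1CAM was the only one of the 8; DESeq2 also called 0 of 8, where it called 2.49% of all genes. The libraries did not overlap those of the control group for 3 of 8 genes at 3 hours (57.3% of all genes), 4 of 8 at 3 days (45.5%), and 2 of 8 at 14 days (11.1%). Between 3 hours and 3 days 2 of 8 genes passed (37.3% of all genes), between 3 days and 14 days 0 of 8 (2.24%, and with DESeq2 0 of 8 and 12.5%; only L1CAM had an unadjusted p under 0.05, 0.0331), and between 3 hours and 14 days 3 of 8 (45.3%). Over the 4 groups together 3 of 8 passed, MBP, L1CAM, and ERBB3, where 52.4% of all genes did. The median log2 fold change of the 8 genes was -0.22, -0.45, and -0.34 at the 3-hour, 3-day, and 14-day points, beside 0.02, -0.00, and 0.02 for all genes. The shares of members that passed were near or below those of all genes at 3 hours, 3 days and over the 4 groups.

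The 8 genes did not move together. Over the 28 pairs of genes the Pearson correlation of log2 CPM ranged from -0.64 to 0.89 with a median of 0.10, and 2 pairs were above 0.8. CDH19 and GFRA3 had r = 0.89 and Spearman's rho = 0.89 (12 libraries), and r was 0.78 without the 2 libraries farthest from the median of CDH19. ERBB3 and NGFR had r = 0.85 and rho = 0.82, with r = 0.74 without the 2 libraries farthest from the median of ERBB3. MBP and CDH19 had rho = 0.78 and r = 0.63. Outside the 8 genes, the gene most like MBP was YTHDC1 (r = 0.968) and the gene most like PRX was TMEM42 (r = 0.934). By Spearman's coefficient neither was among the first 5. These coefficients are descriptions over libraries that share their groups, and no p is given.

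ERBB3 and NGFR were set beside markers of other cell types. Over the 12 libraries, the Pearson correlation of log2 CPM of ERBB3 with the log2 summed CPM of a marker list was 0.49 for epithelium, 0.91 for lacrimal or serous gland, and 0.796 for melanocytes, and -0.91 for blood vessel endothelium and -0.88 for leukocytes. For NGFR these values were 0.57, 0.62, 0.43, -0.72, and -0.69 in the same order. They describe libraries that share their groups. The gene most like NGFR was EFNA5 (r = 0.975), a ligand of Eph receptors. The gene most like ERBB3 was CGN (r = 0.988), which encodes cingulin of epithelial tight junctions. By Spearman's coefficient EFNA5 was not among the first 5 genes for NGFR, nor CGN among those for ERBB3. CGN had 333, 269, and 151 CPM in the control libraries and 82.3, 26.2, and 59.5 CPM at 3 hours (log2 fold change -2.17, SE 0.47, q = 0.00408). The epithelial transcription factor GRHL2 had 236, 212, and 103 CPM in the control libraries and 34.3, 15, and 48.7 CPM at 3 hours (log2 fold change -2.49, SE 0.45, q = 0.00153), and the epithelial splicing factor ESRP1 fell as well (-1.69, SE 0.35, q = 0.00314). Other epithelial markers rose at 3 hours, among them CLDN4 (2.71, SE 0.45, q = 0.000955) and EPCAM (0.997, SE 0.16, q = 0.000884), and the summed epithelial marker CPM was 7414 to 14544 in control and 7204 to 11506 in TL3h libraries. Of the 11 epithelial markers tested, 2 rose and 2 fell at 3 hours, and of 8 gland markers 2 rose and 3 fell, where 45.4% of all genes passed in either direction. The summed gland marker CPM was 4327 to 7296 in control and 1526 to 3773 in TL3h libraries. The part of the epithelium or of gland tissue in the values of ERBB3 and NGFR was not tested.

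The epithelial markers differed in how they stood beside L1CAM. KRT5, a keratin of basal epithelial cells, was at 9070, 8648, and 3596 CPM in TL3d replicates 1, 2, and 3, the same order as L1CAM, and at 1258 to 2695 CPM in the control libraries (log2 fold change 1.86, SE 0.48, q = 0.0291). ITGB4, the integrin chain of hemidesmosomes, was at 742, 561, and 208 CPM in these TL3d libraries and at 123 to 306 CPM in the control libraries, so that TL3d replicate 3 lay within the control range. KRT15, also a keratin of basal cells, went the other way: TL3d replicates 1, 2, and 3 had 159, 219, and 437 CPM, against 1447 to 2743 CPM in control tissue (log2 fold change -3.03, SE 0.78, q = 0.0291), and it was highest, at 3799 CPM, in TL14d replicate 1, where L1CAM was lowest. At 14 days both KRT5 and L1CAM were highest in replicate 2 and lowest in replicate 1. The gene most like L1CAM was CDA, cytidine deaminase (r = 0.971), at 0.546, 0.650, and 0.577 CPM in the control libraries and 6.65, 3.26, and 1.65 CPM in the TL3d libraries. By Spearman's coefficient CDA was not among the first 5 genes for L1CAM. Of the neuron and axon markers 6 were tested, and 1, UCHL1, a ubiquitin hydrolase abundant in neurons, passed at 3 hours and at 3 days, where 45.4% and 17.6% of all genes did. UCHL1 was at 0.665 CPM on average in control, 1.40 CPM at 3 hours (log2 fold change 1.07, SE 0.35, q = 0.0307), and 2.33 CPM at 3 days (1.81, SE 0.36, q = 0.0147). NEFL, a neurofilament chain, ranged from 1.35 to 32.4 CPM in the control libraries and from 4.17 to 8.75 CPM in the TL3d libraries, and these overlapped. STMN2, NEFH, PRPH, SCN9A, ELAVL4, and SNAP25 had too few counts to be tested and reached at most 18 counts in any library. The 3-day calls for KRT5, KRT15, and UCHL1 were lost, as was that for L1CAM, without the libraries with skeletal muscle genes. The part of basal epithelial cells or axons in the L1CAM values was not tested.

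**Figure D4:**
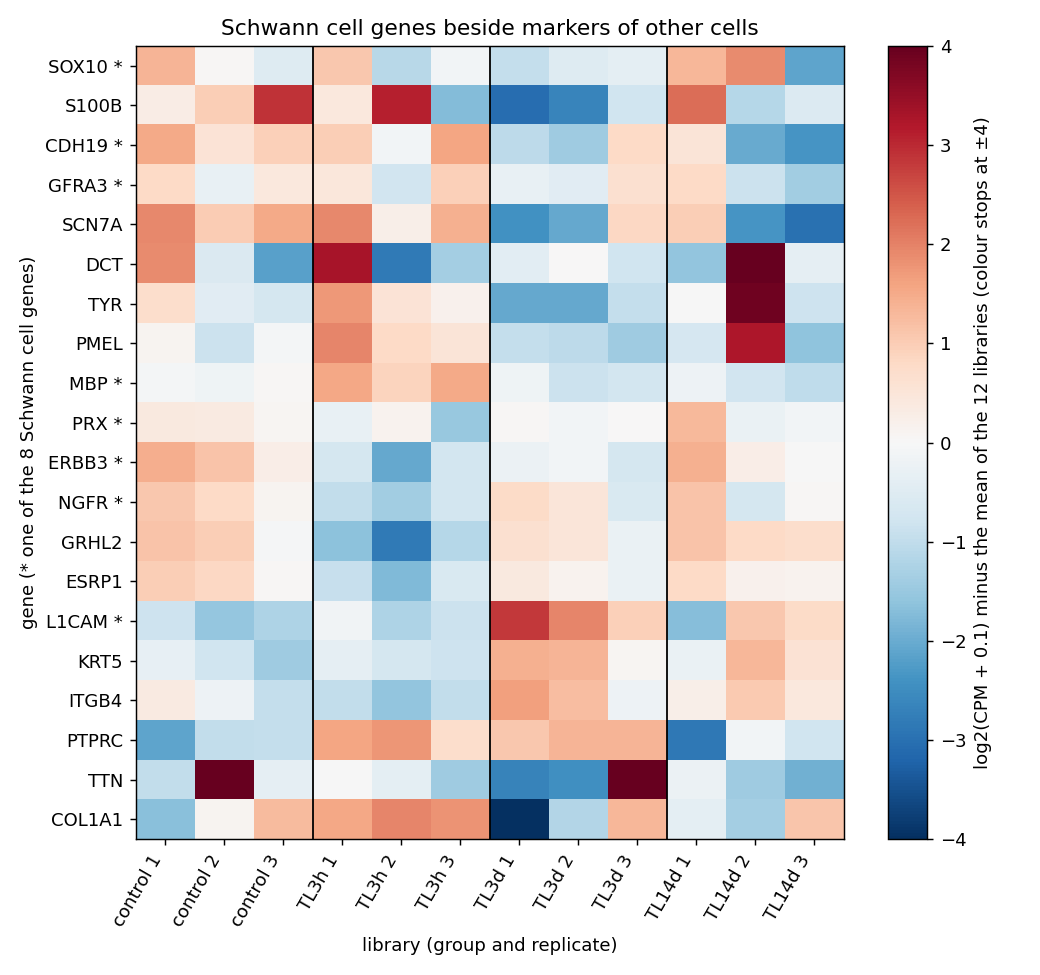
Log2 of CPM plus 0.1, minus the mean of the 12 libraries for each gene, with color limits of -4 and 4; columns are libraries and asterisks mark the 8 genes. ERBB3 and NGFR share their low TL3h columns with GRHL2 and ESRP1, L1CAM is high in all TL3d columns while KRT5 and ITGB4 are high in replicates 1 and 2, CDH19 and GFRA3 resemble SCN7A, and SOX10 is highest in the library with the most DCT, TYR, and PMEL.

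The deposited transcript table held 20 transcript models of the 8 genes, of which 17 passed the filter, among 26082 tested. At 3 hours 4 of 17 passed the threshold, where 28.3% of all transcripts did; without the filter on low counts 3 passed. Of these, the 1005-base model of MBP rose (log2 fold change 1.98, SE 0.62, q = 0.0378), and its more abundant 1038-base model was at 1.11 (SE 0.38, q = 0.0535). Both models of ERBB3 fell: the longer one (5756 bases) by 1.89 on the log2 scale (SE 0.48, q = 0.0147) and the shorter one (5530 bases) by 3.53 (SE 0.67, q = 0.00353). The shorter model took 25.2%, 23.7%, and 12.7% of the ERBB3 estimate in the control libraries and 5.02%, 20.9%, and 6.66% at 3 hours, and these shares overlapped. The NGFR model was the fourth to pass. At 3 days 1 of 17 passed, where 5.13% of all transcripts did: the 5311-base model of L1CAM had 2.04, 1.72, and 0.555 CPM and was at 0 in all control and TL3h libraries (q = 0.0309). This model took only 4.36%, 6.73%, and 4.46% of the L1CAM estimate in TL3d replicates 1, 2, and 3. The more abundant models of 5178 and 3744 bases rose by 3.34 (q = 0.159) and 4.26 (q = 0.0698) on the log2 scale, without passing. At 14 days none of 17 passed, where 0% of all transcripts did. The models of a gene overlap one another in position, and 1 of the L1CAM models (290778533 to 290790383) covers part of the span of the others, so that the division of reads between them is an estimate.

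Genes known to work with the 8 were examined in lists, and the counts in them stand beside 45.4% of all genes past the threshold at 3 hours and 17.6% at 3 days. The myelin list had 15 genes tested, of which 1 rose and 1 fell at 3 hours and 1 fell at 3 days, both shares below those of all genes. EGR2, the transcription factor that drives myelin genes and also an immediate early gene in many cells, rose from 1.51 to 47.0 CPM on average at 3 hours (log2 fold change 4.96, SE 1.03, q = 0.00323). ADGRG6, an adhesion receptor needed for myelination, fell at 3 hours (-0.75, SE 0.24, q = 0.0269) and 3 days (-1.39, SE 0.24, q = 0.0114). The 3-day call for ADGRG6 was lost without the libraries with skeletal muscle genes. The median log2 fold change of the myelin list was 0.31 and 0.33 at 3 hours and 3 days. The list of Schwann cell identity and non-myelinating genes had 14 tested, with 3 higher and 2 lower at 3 hours and 2 lower at 3 days, and medians of -0.07 and -1.58. COL28A1, a collagen chain of peripheral nerve, rose at 3 hours (5.27, SE 0.82, q = 0.000652), as did CADM4, an adhesion molecule of the internode (1.97, SE 0.42, q = 0.00374). TFAP2B, a neural crest factor that epithelia also use, fell (-2.34, SE 0.41, q = 0.0013), as did TFAP2A (-1.22, SE 0.18, q = 0.000496).

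Of 13 repair Schwann cell genes tested, 5 rose and 0 fell at 3 hours, and 1 rose at 3 days, with medians of 0.77 and 0.68; the shares that passed were below the 45.4% and 17.6% of all genes, although all 5 at 3 hours were in 1 direction, where 23.2% of all genes rose. LIF, a cytokine of the IL6 family, rose from 25.4 to 291 CPM on average (log2 fold change 3.52, SE 0.50, q = 0.000406), and the stress factor ATF3 rose from 48.7 to 232 CPM (2.25, SE 0.41, q = 0.00164). STAT3 (1.496, SE 0.26, q = 0.00109) and CLCF1 (2.06, SE 0.39, q = 0.00186) rose as well. These genes are used by leukocytes, fibroblasts, and epithelium after wounding, and 6 of 9 leukocyte markers tested also rose and 1 fell at 3 hours. The summed leukocyte marker CPM was 201 to 496 in control, 1308 to 2605 in TL3h, and 1855 to 2027 in TL3d libraries. The part of these cells was not tested.

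Among ligands and partners of the receptors, a minority passed the threshold at 3 hours. In the neuregulin and ERBB list of 12 genes tested, 2 rose and 2 fell at 3 hours, 1 rose and 3 fell at 3 days (4 of 12 each time, beside 45.4% and 17.6% of all genes), and the medians were -0.40 and -0.57. ERBB2, the partner of ERBB3, was at 360, 302, and 174 CPM in the control libraries and 68.5, 39.99, and 73.8 CPM at 3 hours (log2 fold change -2.20, SE 0.35, q = 0.000701). ERRFI1, a feedback inhibitor of this receptor family, rose (4.30, SE 0.24, q = 1.69e-05), and the ligand NRG4 fell (-0.98, SE 0.25, q = 0.0095). In the neurotrophin list of 10 genes tested, 1 rose and 2 fell at 3 hours and none passed at 3 days, both below the shares of all genes, with medians of 0.38 and -0.08. NTF4, a ligand of the family, fell at 3 hours (-2.67, SE 0.46, q = 0.00119).

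The next 4 lists each had a share past the threshold at 3 hours below the 45.4% of all genes. In the GDNF family list of 6 genes tested, GDNF rose at 3 hours (log2 fold change 2.15, SE 0.72, q = 0.0324), and none passed at 3 days, with medians of 0.63 and -0.91. In the list of the L1 family and axon-glia adhesion, 13 were tested, and 1 rose and 1 fell at 3 hours and none at 3 days, with medians of 0.42 and -0.16. CADM1 fell (-1.02, SE 0.30, q = 0.0182). Of 14 periaxin partners and basal lamina receptors, 3 rose and 1 fell at 3 hours, and 1 rose and 2 fell at 3 days, with medians of 0.56 and 0.08. ITGA6, the laminin receptor chain shared with epithelial hemidesmosomes, rose (2.90, SE 0.53, q = 0.00166), and DAG1, dystroglycan, fell (-0.82, SE 0.15, q = 0.00161). Of 10 SOX10 partners and neural crest genes tested, 2 rose and 2 fell at 3 hours, and 1 rose and 1 fell at 3 days, with medians of 0.00 and -0.03. At 3 days the last pair of lists, at 3 of 14 and 2 of 10, were near the 17.6% of all genes. KIT, a receptor of melanocytes and mast cells, fell at 3 hours (-2.71, SE 0.72, q = 0.0116) and 3 days (-2.94, SE 0.73, q = 0.026). The 3-day call for KIT was likewise lost without the libraries with skeletal muscle genes. No gene of these lists passed the threshold at 14 days.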

How the data were processed

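RNA from rabbit conjunctiva was sequenced as paired reads after a stranded mRNA library preparation, and per the labels reads were aligned with STAR 2.6.0c to OryCun2.0. The authors deposited estimated counts and FPKM per gene and per transcript, made with GeneData Profiler Genome; 23.4% of the estimated count values were fractions and were rounded. The test was edgeR 4.0.16 (quasi-likelihood, R 4.3.3) with filterByExpr (minimum count 10, minimum total 15) and TMM factors over all 12 libraries and 4 groups, without covariates; q is the Benjamini-Hochberg adjusted p over 14835 genes (threshold 0.05). TMM factors were 0.768 to 0.783 in TL3h and 1.03 to 1.13 in the other libraries. CPM use these library sizes. The deposited FPKM, which carry no TMM factor, served only to compare levels between genes. Scaling by library size without TMM put the 3-hour median over all genes at -0.47 (log2). The tests were checked on simulated data. Alternatives were DESeq2 1.42.0, other scalings, no filter, a replicate block, fewer libraries, and each library left out.

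The 8 genes and all lists were chosen with earlier results of these data known. All 8 genes are described; from each other list up to 4 genes with the smallest p over the 4 groups are named, and for marker lists also the first 3 detected. CGN, CDA, EFNA5, SCN7A, YTHDC1, TMEM42, MAG, FOXD3, and the neuron markers with few counts were named after their values were seen. The 3 libraries left out together were also chosen from earlier results. No sequences are printed, and some genes are not reported here.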

Additional observations from a re-analysis of the deposited data

Results flagged for a closer look

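The effect over control differed between time points for 4 of the 8 genes, by the contrast of the time points in the edgeR fit. By the same contrasts 37.3% of all genes passed between 3 hours and 3 days and 45.3% between 3 hours and 14 days, against 2 of 8 and 3 of 8 of these genes. MBP differed by -1.93 on the log2 scale between 3 days and 3 hours (q = 0.000544) and by -1.99 between 14 days and 3 hours (q = 0.000378). L1CAM differed by 2.81 between 3 days and 3 hours (q = 0.0107). ERBB3 differed by 1.75 (q = 0.0140) and NGFR by 1.38 (q = 0.0432) between 14 days and 3 hours. The groups held 3 libraries each, and single libraries within groups of this size were not tested as outliers.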

How the results depend on the processing

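The call for MBP and that for ERBB3 at 3 hours held in 20 of 20 alternatives, with q at most 0.0178 and 0.0256; NGFR held in 18 of 20. Without control replicate 3, TL3d replicate 3, and TL14d replicate 1 together, the count past the threshold was 3 at 3 days (25.9% of all genes) and 2 at 14 days (8.17%) against control, 4 from 3 hours to 3 days (42.1%), and 5 over the 4 groups (60.9%); these shares of all genes were also above those with all libraries. At 3 days against control it was 2 with DESeq2 (30.3% of all genes), 2 with only the 6 libraries compared (22.6%), and 0 without the 2 libraries with skeletal muscle genes (chosen after the data were seen), where 0% of all genes passed. With 1 library left out in turn, the counts ran from 2 to 3 at 3 hours (34.9% to 48.1% of all genes), 0 to 2 at 3 days (2.37% to 25% of all genes), and 0 to 2 at 14 days (0% to 4.74%) against control, 2 to 3 from 3 hours to 3 days, 0 to 0 from 3 to 14 days, 2 to 3 from 3 hours to 14 days, and 3 to 5 over the 4 groups. The cause was not tested. Of 959 single gene values, 36 changed sign, all of genes past no threshold in the comparison.

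Nothing states that replicate numbers pair animals, so the numbers were not taken as a pairing. Deviations were correlated above 0.1 in 8 of 18 same-numbered pairs of libraries (r from -0.17 to 0.50). The same held for 9 of 36 pairs with other numbers (r from -0.55 to 0.42). Whether the numbers pair animals was not settled by these values. The replicate block called 6946 genes in place of 6733 at 3 hours, and for the 8 genes gave counts of 3, 1, and 0 against control for TL3h, TL3d, and TL14d, 3 from 3 hours to 3 days, 0 from 3 to 14 days, 3 from 3 hours to 14 days, and 4 over the 4 groups. Under the block, GFRA3 at 3 hours was -0.051 and NGFR from 3 to 14 days -0.034. GFRA3 at 3 hours was -0.052 with DESeq2 size factors and with DESeq2, -0.48 with library size only, -0.014 without a filter, -0.024 without the 3 libraries, and -0.28 without the 2, and from 3 hours to 3 days it was 0.050 with library size only. From 3 to 14 days, without the 2 muscle libraries, CDH19 was 0.81, NGFR -0.28, and GFRA3 0.26; without the 3 libraries NGFR was -0.92 and PRX -0.15. PRX at 14 days was -0.60 without the 3 libraries. With single libraries left out, values that changed sign ranged at 3 hours from -1.30 to 0.51 for SOX10, -0.64 to 0.22 for CDH19, and -0.54 to 0.35 for GFRA3, and at 14 days from -0.080 to 1.502 for SOX10 and -0.49 to 0.47 for PRX. From 3 hours to 3 days GFRA3 ranged from -0.94 to 0.12. From 3 to 14 days MBP ranged from -0.33 to 0.18, CDH19 from -4.26 to 0.81, NGFR from -0.62 to 0.37, PRX from -0.18 to 0.78, and GFRA3 from -1.57 to 0.26. SOX10, CDH19, and GFRA3 had low counts and a wide spread between libraries, and the part of each in their imprecision was not tested.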
